A study of Mus musculus with 5 samples.

Results

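The genes examined here are 10 genes of fibroblast growth factor (FGF) signalling and of the primed state of pluripotency: *Fgf4*, *Fgf5*, *Otx2*, *Pou3f1*, *Dusp6*, *Spry2*, *Spry4*, *Etv4*, *Etv5* and *Lef1*. Their peaks were taken from 3 lists of ChIP-seq peaks in female mouse embryonic stem cells (mESCs) of the hybrid strain 129/Sv-Cast/Ei. A peak belonged to a gene when its summit lay in the annotated gene or within 20 kb of either end. By this rule 101 of 96050 REX1 peaks, 114 of 97602 RNF12 WT peaks and 74 of 98124 RNF12 H569A,C572A peaks were members, and all 10 genes had members in every list.

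RNF12, encoded by *Rlim*, is a RING-type E3 ubiquitin ligase, and REX1, encoded by *Zfp42*, is a zinc finger transcription factor that it ubiquitylates. The REX1 library came from WT mESCs with FLAG-V5-REX1, as the labels give it, while the study describes REX1 occupancy as earlier work. The other libraries came from Rlim+/- mESCs that stably carried tagged RNF12 WT, or tagged RNF12 with the changes H569A,C572A that remove its catalytic activity (mutant RNF12), from a vector with the CAG promoter after puromycin selection. Those cells kept their own intact *Rlim* allele, received 15 μM of the proteasome inhibitor MG132 for 3 h and were cross-linked with 2 mM DSG and 1% formaldehyde, and the tagged proteins were precipitated through V5. Each list rests on 1 library, so there are no replicates, no comparison between lists has a test, and the lists hold no read totals, so depth is unknown. The REX1 and RNF12 lists differ in tagged protein and in cells together, which cannot be told apart, and the REX1 record repeats the protocol written for the RNF12 libraries, so whether its cells had MG132 or DSG is not settled.

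FGF4 is the FGF that mESCs secrete, and it acts through FGF receptors and the RAS, RAF, MEK and ERK kinases. ERK signalling moves mESCs out of the naive state, and cells in the primed state that follows express *Fgf5*, *Otx2* and *Pou3f1*. ETV4 and ETV5 are ETS transcription factors, and DUSP6, SPRY2 and SPRY4 are feedback inhibitors that ERK signalling induces. LEF1 is a transcription factor that acts with β-catenin in Wnt signalling and is also used as a primed-state gene. The comparisons ask whether REX1 and RNF12 peaks lie at these genes, at the same places, and how high they rank in their own list.

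The sequences shown first are those under REX1 member peaks that held the string linked to REX1, picked for holding it and not for their rank. The REX1 string is ATGGC, then G or T, then A, C or G, then C, and the search took in either strand up to 50 bp from the summit. It was found at 7 of the 101 member peaks of REX1 (6.93%, 95% Wilson interval 3.40% to 13.6%), against 12.8% of all REX1 peaks. The windows below run along the plus strand of GRCm38 (mm10), and capitals mark the string. At *Fgf4* the window is chr7:144846403-144846503, upstream of the gene, and the centre of the string lies 4 bp from the summit. At *Etv5* the windows chr16:22428520-22428620 and chr16:22412606-22412706 are intronic, and the second holds the string once on each strand. At *Lef1* the intronic windows are chr3:131200129-131200229 and chr3:131219113-131219213, and in the first the summit lies inside the string. At *Pou3f1* the window chr4:124657867-124657967 is in the coding exon.
Fgf4 upstream: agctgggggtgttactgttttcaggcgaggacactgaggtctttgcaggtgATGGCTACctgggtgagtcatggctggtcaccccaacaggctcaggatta
Etv5 intron, strongest distal REX1 peak: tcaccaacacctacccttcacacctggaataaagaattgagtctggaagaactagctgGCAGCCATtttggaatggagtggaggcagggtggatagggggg
Etv5 intron, string on both strands: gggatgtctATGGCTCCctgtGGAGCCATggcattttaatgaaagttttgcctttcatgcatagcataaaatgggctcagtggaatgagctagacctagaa
Lef1 intron, strongest distal REX1 peak: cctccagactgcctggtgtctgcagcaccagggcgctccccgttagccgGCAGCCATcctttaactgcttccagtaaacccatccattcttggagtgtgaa
Lef1 intron, distal: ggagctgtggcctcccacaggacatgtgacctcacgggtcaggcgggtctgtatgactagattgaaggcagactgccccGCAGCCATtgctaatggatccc
Pou3f1 coding exon: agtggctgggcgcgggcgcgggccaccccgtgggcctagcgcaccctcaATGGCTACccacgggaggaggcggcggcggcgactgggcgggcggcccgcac

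The member peak of REX1 with the highest fold enrichment, upstream of *Spry2*, did not hold the REX1 string. Its window, chr14:105897283-105897383, held only the first 5 letters, ATGGC, marked by capitals. That 5-letter core was found at 31.7% of the REX1 member peaks (23.4% to 41.3%) and at 37.0% of all REX1 peaks, a search chosen after seeing the data. For RNF12 WT the shares were 12.3% (7.46% to 19.6%) and 20.7%, and for mutant RNF12 2.70% (0.744% to 9.33%) and 15.7%. The string that the RNF12 motif logo gives, with up to 1 mismatch, was found at 1 member peak in all 3 lists, and that peak was a REX1 peak over the start of *Dusp6* that overlapped no RNF12 peak. A stretch of 30 bases around it, chr10:99263209-99263238, is shown with the string in capitals.
Spry2 upstream, strongest REX1 peak: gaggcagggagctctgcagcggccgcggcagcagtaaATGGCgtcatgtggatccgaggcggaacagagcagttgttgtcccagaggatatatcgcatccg
Dusp6 start: cattgagACGCTGGCTGTTTGTatccattg

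Among the RNF12 member peaks, 1 held the REX1 string and none held the YY1 or the RNF12 string. The REX1 string was found at 1 of 114 RNF12 WT peaks, the peak that overlaps the REX1 peak upstream of *Fgf4* (0.877%, 0.155% to 4.80%, against 4.68% of all RNF12 WT peaks). It was found at 0 of 74 RNF12 H569A,C572A peaks, where the interval reaches 4.93% and the share of all peaks is 3.59%. The core string of YY1, a related zinc finger factor, which can share letters with the REX1 string, was found at no member peak in any list, with upper bounds of 3.66%, 3.26% and 4.93%, against 5.65% of all REX1 peaks, 1.82% of all RNF12 WT peaks and 1.70% of all RNF12 H569A,C572A peaks. The RNF12 string was found at 0.990% of the REX1 member peaks (0.175% to 5.40%) and at none of the RNF12 member peaks, and over all peaks it was found at 3.12% for REX1, 4.48% for RNF12 WT and 5.25% for mutant RNF12. In RefSeq promoters (GRCm38.p6, a short stretch around each start), 7 of the 10 genes had an entry, and the REX1 string was in 1 of them, *Etv5*, against 7.14% of all entries.

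**Figure D1:**
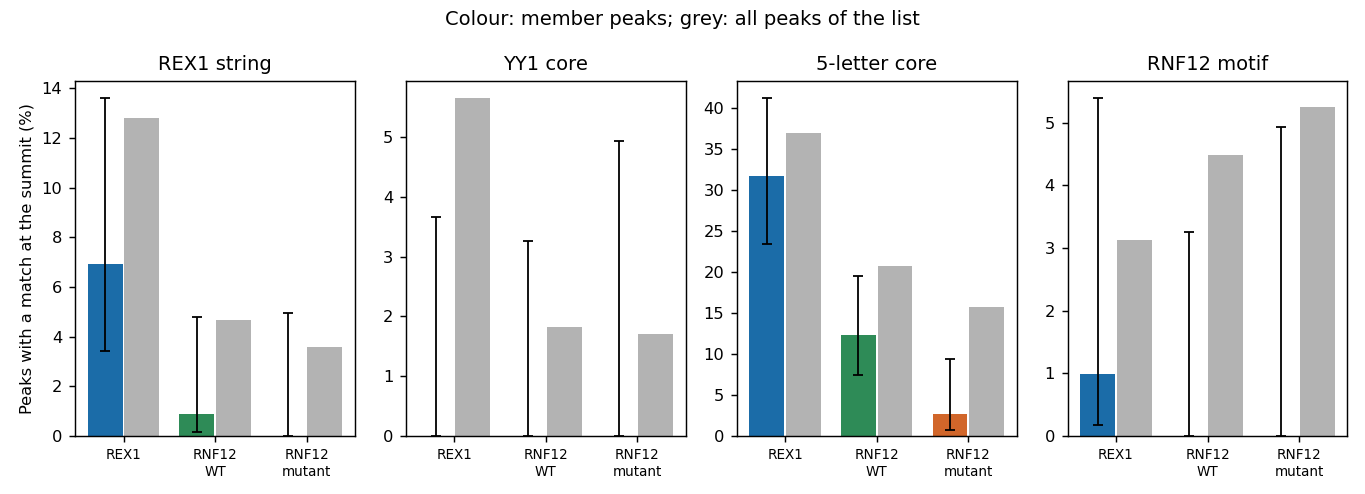
Percentage of peaks with a sequence match within 50 bp of the summit, for the REX1 string, the YY1 core, the 5-letter core ATGGC and the RNF12 motif, in separate panels with their own axes. Coloured bars are member peaks with 95% Wilson intervals and grey bars are all peaks of the same list; the REX1 string was at 6.93% of REX1 member peaks and 12.8% of all REX1 peaks.

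All 10 genes had a promoter peak, with a summit within 1 kb of an annotated transcription start site (TSS) of the gene, in each of the 3 lists. Over all protein-coding genes the share with a promoter peak was 67.5% in the REX1 list, 68.9% in the RNF12 WT list and 67.7% in the mutant RNF12 list. A promoter peak in all 3 lists was found at 10 of 10 members (Wilson interval 72.2% to 100%) and at 60.7% of all protein-coding genes, and 25.1% of those genes had one in no list, as 0 of the 10 members did. When only the 20000 peaks of each list with the highest −log10 q were kept, 6 members had a REX1 promoter peak, against 35.3% of all protein-coding genes. The counts were 7 for RNF12 WT, against 40.4%, and 3 for mutant RNF12, against 29.2%, so the share of members was then near the background in the mutant RNF12 list. Counts of promoter peaks ran from 1 to 8 per gene, with 33 in the REX1 list, 33 in the RNF12 WT list and 29 in the RNF12 H569A,C572A list. *Otx2*, a homeobox gene of the primed state, had the most, with 8, 6 and 6 peaks over its 10 annotated TSSs. *Pou3f1* and *Lef1* had 1 REX1 promoter peak each, the fewest in that list.

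Members also had distal peaks, farther than 1 kb from every TSS, in nearly all cases. REX1 and RNF12 WT each had a distal peak in 10 of 10 windows, against 74% and 73.4% of windows of all protein-coding genes. RNF12 H569A,C572A had one in 9 of 10, against 79.8%, and the window without one was that of *Fgf5*. The density of peaks per 10 kb of window had a member median of 1.72 for REX1, 1.59 for RNF12 WT and 1.19 for mutant RNF12. The medians over all protein-coding genes were 0.627, 0.641 and 0.574, so the density lay above the all-gene median at 10, 10 and 8 of the 10 genes.

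**Figure D2:**
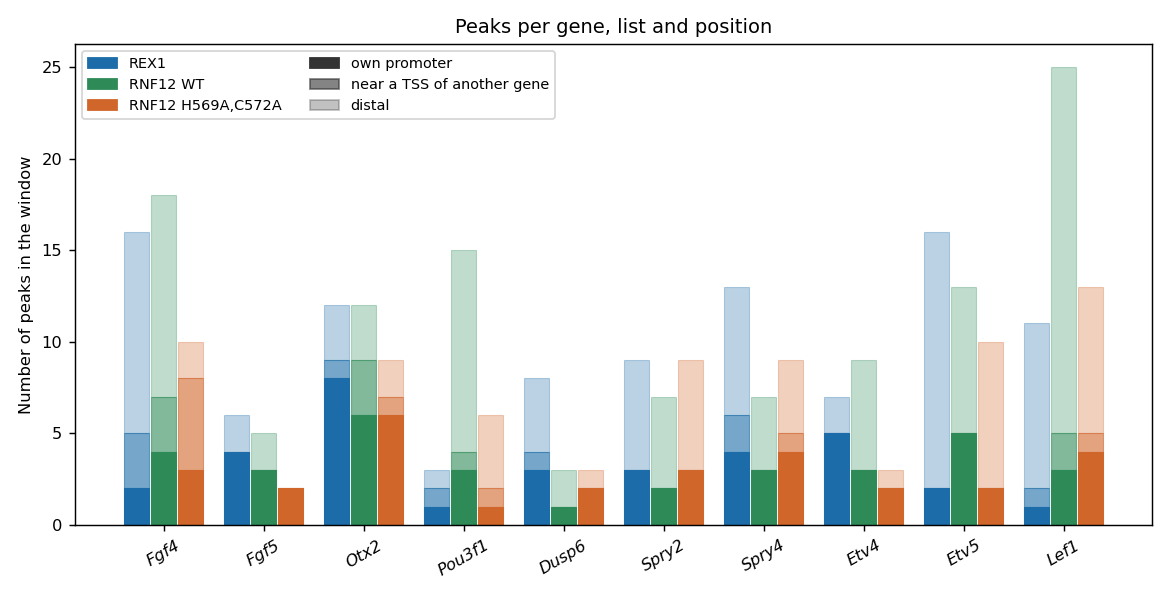
Number of peaks (vertical axis) in the window of each gene (horizontal axis), one bar per list, with dark, medium and pale parts for own promoter, TSS of another gene and distal. RNF12 WT had 25 peaks at *Lef1* and 15 at *Pou3f1*, where RNF12 H569A,C572A had 13 and 6 and REX1 had 11 and 3.

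The position of the member peaks was compared with that of all peaks of the same list. Of the RNF12 H569A,C572A member peaks 36 of 74 were distal (48.6%, 37.6% to 59.8%), against 69.2% of all peaks of that list without a TSS within 1 kb. For REX1 59 of 101 were distal (58.4%, 48.7% to 67.5%, against 64.0%) and for RNF12 WT 72 of 114 (63.2%, 54.0% to 71.5%, against 61.4%). The other member peaks off the promoters, 9 in each list, lay within 1 kb of a TSS of another gene, such as *Fgf3* beside *Fgf4*, *Otx2os1* beside *Otx2* and *Gm2164* at *Pou3f1*. Soft-masked bases, which mark repeats, were within 50 bp of the summit at 16 of 36 distal RNF12 H569A,C572A member peaks (44.4%, 29.5% to 60.4%), against 76.5% of all such peaks of that list. For REX1 the shares were 33.9% and 46.9%, and for RNF12 WT 27.8% and 43.0%. The shares of all peaks and of all distal peaks take in peaks far from any gene, which the member windows leave out. The promoter share of the RNF12 H569A,C572A member peaks moved with the window. It was 46.8% with a 5-kb window, 39.2% with the window used here and 25.9% with a 50-kb window. The parts of the window rule and of repeats in the lower distal share were not tested.

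Fold enrichments were ranked only within their own list, as the percentile among all its peaks. The strongest promoter peak of each gene had a median percentile of 89.1 for REX1, 89.5 for RNF12 WT and 74.6 for mutant RNF12. The medians over all protein-coding genes with a promoter peak were 77.5, 81.0 and 79.8, and 8, 6 and 4 of the 10 genes lay above them. The strongest peak is a maximum over a median of 3, 3 and 2.5 promoter peaks per member, against 1 per gene overall. Over all promoter peaks of the members the median percentiles were 61.2, 60.8 and 63.1, against 52.2, 55.4 and 61.7 for all peaks within 1 kb of a TSS, so the side on which the mutant RNF12 list lay depended on the measure. By −log10 q the same promoter peaks had medians of 6.28, 5.35 and 11.2, against 5.97, 5.35 and 12.0 for all peaks within 1 kb of a TSS, with the mutant RNF12 list below. In the REX1 list the order of the genes from the highest was *Spry2*, *Etv4*, *Dusp6*, *Otx2*, *Fgf4*, *Fgf5*, *Spry4*, *Etv5*, *Pou3f1* and *Lef1*. With 1 library per list the error of a percentile is unknown, so neighbours in this order cannot be called different. Ranked by −log10 q instead, *Fgf5* stood at 75.8, behind *Spry4* and *Etv5*.

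**Figure D3:**
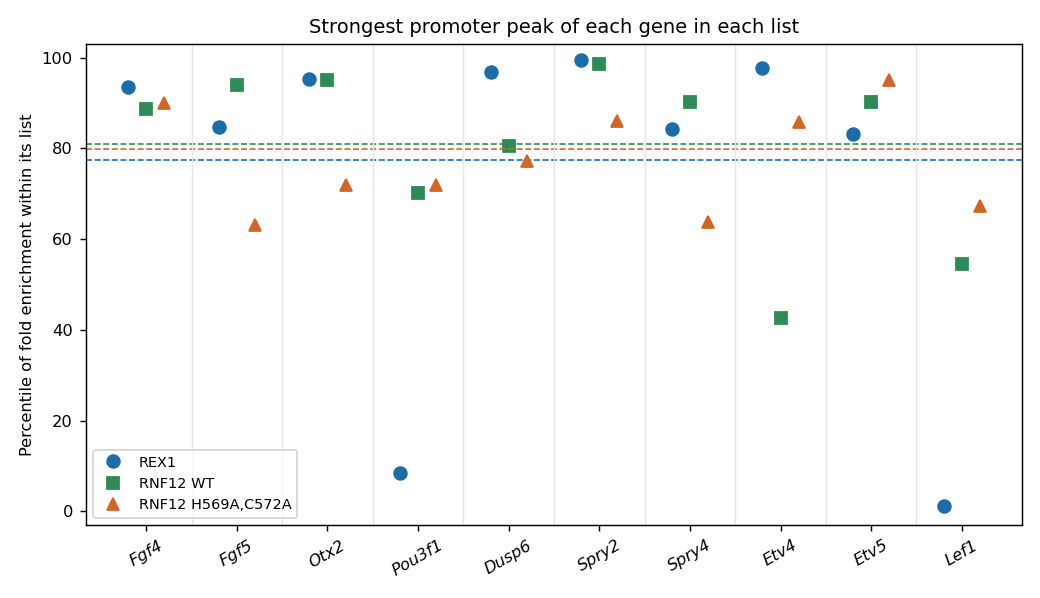
Percentile of fold enrichment within its own list (vertical axis) for the strongest promoter peak of each gene (horizontal axis), with dashed lines at the medians over all protein-coding genes in the colour of the list. REX1 ran from 1.25 at *Lef1* to 99.6 at *Spry2*, RNF12 WT from 42.6 at *Etv4* to 98.6 at *Spry2*, and RNF12 H569A,C572A from 63.1 at *Fgf5* to 95.1 at *Etv5*.

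Among the ligands, *Fgf4* (chr7:144847367-144865243, plus strand) had peaks of all 3 lists over its inner TSS. The RNF12 WT peak there had a fold enrichment of 6.41 (percentile 88.7) with its summit 157 bp inside the transcript, in the coding exon. The RNF12 H569A,C572A peak reached 15.6 (percentile 90.1) at 270 bp in the same exon, while the REX1 peak had 4.59 (percentile 53.9). The strongest REX1 promoter peak, at chr7:144846323-144846547, was elsewhere, 914 bp before the outer TSS, with a fold enrichment of 8.16 (percentile 93.5). The RNF12 WT peak that overlaps it had a percentile of 42.6, and no RNF12 H569A,C572A peak was there, so the leading REX1 and RNF12 peaks of *Fgf4* were at different sites.

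In an intron of *Fgf4*, 1 distal site was in all 3 lists, at percentiles of 76.7 for REX1, 75.3 for RNF12 WT and 54.0 for mutant RNF12. The strongest distal peaks were an intronic REX1 peak of its own at percentile 90.7, an upstream RNF12 WT peak at 81.4 and the RNF12 H569A,C572A peak of the shared site. The window also takes in the start of *Fgf3*, a neighbouring FGF gene, where 2 sites were in all 3 lists. At one of them REX1 was at percentile 89.2, RNF12 WT at 66.0 and RNF12 H569A,C572A at 86.1, and at the other the values were 31.7, 88.3 and 27.6. In all, 4 of 28 sites in the window were in all 3 lists.

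*Fgf5* (chr5:98254184-98277030, plus strand), the classic marker of the primed state, had most of its peaks at its start. Of its 3 promoter sites 2 were in all 3 lists. At the outer of these REX1 was at percentile 84.7, RNF12 WT at 78.9 and RNF12 H569A,C572A at 63.1, and at the inner the values were 24.4, 93.9 and 61.9. Here RNF12 WT was strongest 37 bp inside the second TSS, in the coding exon, with a fold enrichment of 7.14, and REX1 was strongest 332 bp before the first, with 6.40. RNF12 H569A,C572A had these 2 peaks in the window and no other, while REX1 had 6 and RNF12 WT 5. The strongest distal peaks were an intronic REX1 peak at percentile 82.3, 19983 bp from the TSS, and a downstream RNF12 WT peak at 45.8.

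Among the transcription factors of the primed state, *Otx2* (chr14:48657677-48673819, minus strand) held a site where REX1 and RNF12 WT both ranked high. The REX1 peak chr14:48664808-48665063, in an intron 184 bp inside an inner TSS, had a fold enrichment of 9.04 (percentile 95.4). The RNF12 WT peak chr14:48664974-48665135 had 7.41 and ranked 4834 of 97602, with its summit 89 bp inside that TSS, in the 5′ UTR. RNF12 H569A,C572A was present but in the middle of its list, at percentile 49.5. At the site around the 5′ end of the gene the order was different, with RNF12 H569A,C572A at percentile 71.8, its strongest promoter peak, REX1 at 61.2 and RNF12 WT at 15.3. Another promoter site in all 3 lists had 20.4 for REX1, 25.05 for RNF12 WT and 70.4 for mutant RNF12. Of the distal peaks, 1 downstream site was in all 3 lists, at 53.3, 12.9 and 55.4, where REX1 and RNF12 H569A,C572A had their strongest distal peaks. The strongest distal RNF12 WT peak was apart from the others, 16141 bp upstream in the antisense gene *Otx2os1*, at percentile 88.3.

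*Pou3f1* (chr4:124656807-124660655, plus strand), a POU-domain factor with 1 annotated TSS, was covered along its body. RNF12 H569A,C572A had 1 peak of 2112 bp over the gene, chr4:124657008-124659119, with a fold enrichment of 14.6 (percentile 88.2), and REX1 had 1 of 1064 bp with 6.71 (percentile 87.3). Several RNF12 WT peaks lay in the same stretch, the strongest of them at percentile 95.2 with its summit in the coding exon, 1509 bp inside the TSS. All of them form 1 site in all 3 lists. The REX1 peak at the TSS itself, with its summit at 158 bp, ranked low in its list (fold enrichment 3.11, percentile 8.41). The RNF12 H569A,C572A peak there, at 55 bp, was at percentile 71.9 of its own list (fold enrichment 9.61), and the strongest RNF12 WT promoter peak, 968 bp inside, was at percentile 70.2. The summits of these 2 wide peaks lay 1037 bp (mutant RNF12) and 1110 bp (REX1) inside the TSS, just past the 1-kb limit for a promoter peak, and within 1 kb of the TSS of *Gm2164* on the opposite strand. Away from the gene body RNF12 WT had scattered peaks, and REX1 had 1, a distal peak at percentile 42.2, while the strongest distal RNF12 H569A,C572A peak, in the 3′ UTR, was at 49.5.

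Among the feedback inhibitors, *Spry2* (chr14:105891947-105896819, minus strand) had the highest-ranking promoter peaks of the 10 genes in the REX1 and RNF12 WT lists. The REX1 peak chr14:105897245-105897496, 514 bp upstream of the TSS, had a fold enrichment of 17.0 and ranked 427 of 96050 (percentile 99.6). The RNF12 WT peak chr14:105897258-105897562 at the same site, 539 bp upstream, had 8.88 and ranked 1365 of 97602 (percentile 98.6). RNF12 H569A,C572A overlapped them with a peak at percentile 84.2, and its strongest promoter peak, 285 bp upstream with a fold enrichment of 13.6 (percentile 85.9), overlapped neither. Another RNF12 WT peak, farther upstream, was at percentile 97.3 and alone. The summits of REX1 and RNF12 WT were thus nearly at one place, and those of RNF12 H569A,C572A lay on both sides of it.

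A further site upstream of *Spry2* was in all 3 lists, with RNF12 WT at percentile 89.7, RNF12 H569A,C572A at 78.2 and REX1 at 5.99, and it held the strongest distal peak of both RNF12 lists. An intronic site had 26.1 for REX1, 54.0 for RNF12 WT and 77.0 for mutant RNF12. The strongest distal REX1 peak, in the coding exon, was at percentile 47.2. Away from the promoter the REX1 peaks in the *Spry2* window were thus in the lower part of their list, while one beyond it, 24278 bp from the TSS, was at percentile 97.7.

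*Dusp6* (chr10:99263231-99267489, plus strand), a phosphatase that inactivates ERK, had a strong REX1 peak at its TSS that overlapped no RNF12 peak. This peak, chr10:99263009-99263352, had its summit 32 bp inside the transcript, in the 5′ UTR, with a fold enrichment of 10.1 (percentile 96.9). A second promoter site, farther inside, was in all 3 lists at percentiles of 66.4 for REX1, 80.5 for RNF12 WT and 77.2 for mutant RNF12, the strongest promoter peaks of both RNF12 lists. An upstream site ranked higher for RNF12, with RNF12 WT at 94.6 (fold enrichment 7.27), RNF12 H569A,C572A at 82.5 and REX1 at 3.88. Next to it, 1907 bp upstream, lay the strongest distal REX1 peak at 89.3, overlapped by an RNF12 WT peak at 76.8. REX1 had 8 peaks in the window and each RNF12 list had 3. The RNF12 WT list held fewer peaks on chromosome 10 as a whole, 3070 against 4554 for REX1 and 4672 for RNF12 H569A,C572A. Among the 1021 protein-coding genes there, 66.7% had an RNF12 WT promoter peak, against 70.2% for REX1 and 72.3% for RNF12 H569A,C572A, and 62.5%, 76.1% and 78.6% had a distal peak. The part of this in the counts at *Dusp6* was not tested.

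The ETS factors showed different leading lists. At *Etv4* (chr11:101769742-101785371, minus strand) REX1 was strongest in an intron, 474 bp before an inner TSS, at chr11:101772491-101772835, with a fold enrichment of 10.9 (percentile 97.6). The RNF12 WT peak that overlaps it, its strongest promoter peak, had 4.39 (percentile 42.6), and RNF12 H569A,C572A had none there. Near the 5′ end, RNF12 H569A,C572A led with 13.6 (percentile 85.9) at a site where REX1 was at 32.9 and RNF12 WT at 16.4. At the next site toward the 5′ end all 3 lists were present again, at percentiles of 36.3 for REX1, 17.9 for RNF12 WT and 47.8 for mutant RNF12. The strongest distal peaks were a REX1 peak 1429 bp upstream at percentile 80.9, an intronic RNF12 WT peak at 90.8 and an RNF12 H569A,C572A peak in a coding exon at 63.1.

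*Etv5* (chr16:22381309-22439719, minus strand) had the highest-ranking promoter peak of the RNF12 H569A,C572A list among the 10 genes. That peak, chr16:22439215-22439774, had its summit 23 bp inside the TSS, in the 5′ UTR, with a fold enrichment of 19.9 (percentile 95.1). RNF12 WT was present there at percentile 73.6 with its summit 25 bp inside, and REX1 at 0.298, with a fold enrichment of 2.15 and its summit 10 bp inside. It was the only *Etv5* site in all 3 lists, of 31 in the window. The strongest REX1 promoter peak, at percentile 83.1, was in an intron 761 bp before an inner TSS and overlapped no other list. The strongest RNF12 WT promoter peak was at 90.3, in an intron 940 bp inside. REX1 had 14 distal peaks in the window, RNF12 WT 8 and RNF12 H569A,C572A 8. The strongest were an intronic REX1 peak with the REX1 string at percentile 91.4, an intronic RNF12 WT peak at 94.6 and an upstream RNF12 H569A,C572A peak at 76.7.

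*Lef1* (chr3:131110471-131224356, plus strand) was the longest gene and had weak REX1 signal at its promoters. The main TSS had RNF12 WT, 69 bp upstream at percentile 36.3, and RNF12 H569A,C572A, 74 bp upstream with a fold enrichment of 8.77 (percentile 67.2), and no REX1 peak overlapped them. The only REX1 promoter peak, 658 bp before an inner TSS in an intron, had 2.47 (percentile 1.25), at a site shared with an RNF12 H569A,C572A peak at 56.98. The strongest RNF12 WT promoter peak, in the 5′ UTR, was at 54.6, in a promoter site that all 3 lists share with REX1 at 43.3 and RNF12 H569A,C572A at 41.1.

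Inside the gene body of *Lef1* REX1 had a peak in the top percent of its list. That intronic peak, chr3:131200065-131200278, had a fold enrichment of 14.1 and ranked 911 of 96050 (percentile 99.0), and no RNF12 peak overlapped it. The strongest distal RNF12 WT peak lay in a coding exon, 75553 bp from the nearest *Lef1* TSS, at percentile 97.6, and the strongest distal RNF12 H569A,C572A peak lay 4309 bp upstream at 78.4. The site of the latter was in all 3 lists, with REX1 at 72.2 and RNF12 WT at 20.0, and so was an intronic site at 75.2, 31.6 and 73.0. RNF12 WT had 20 distal peaks at *Lef1*, REX1 9 and RNF12 H569A,C572A 8, and 14 of the 32 sites were RNF12 WT sites alone.

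*Spry4* (chr18:38586247-38601415, minus strand), the remaining feedback inhibitor, had each of its 3 promoter sites in all 3 lists. At the middle one REX1 was at percentile 84.4 with a fold enrichment of 6.38, RNF12 WT at 90.3 with 6.65 and RNF12 H569A,C572A at 63.7 with 8.28, the strongest promoter peaks of each list. Their summits lay 317, 337 and 303 bp upstream, in the neighbouring gene *AC133601.1*. At the TSS itself the percentiles were 76.8, 72.2 and 62.7, and at the farthest upstream site 73.0, 50.8 and 27.6. The strongest distal peaks were those of REX1 in a coding exon at 83.3, of RNF12 WT downstream at 94.9 and of RNF12 H569A,C572A in a coding exon at 62.6. The remaining member peak with the REX1 string was a REX1 peak in the 3′ UTR, at percentile 15.9.

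**Figure D4:**
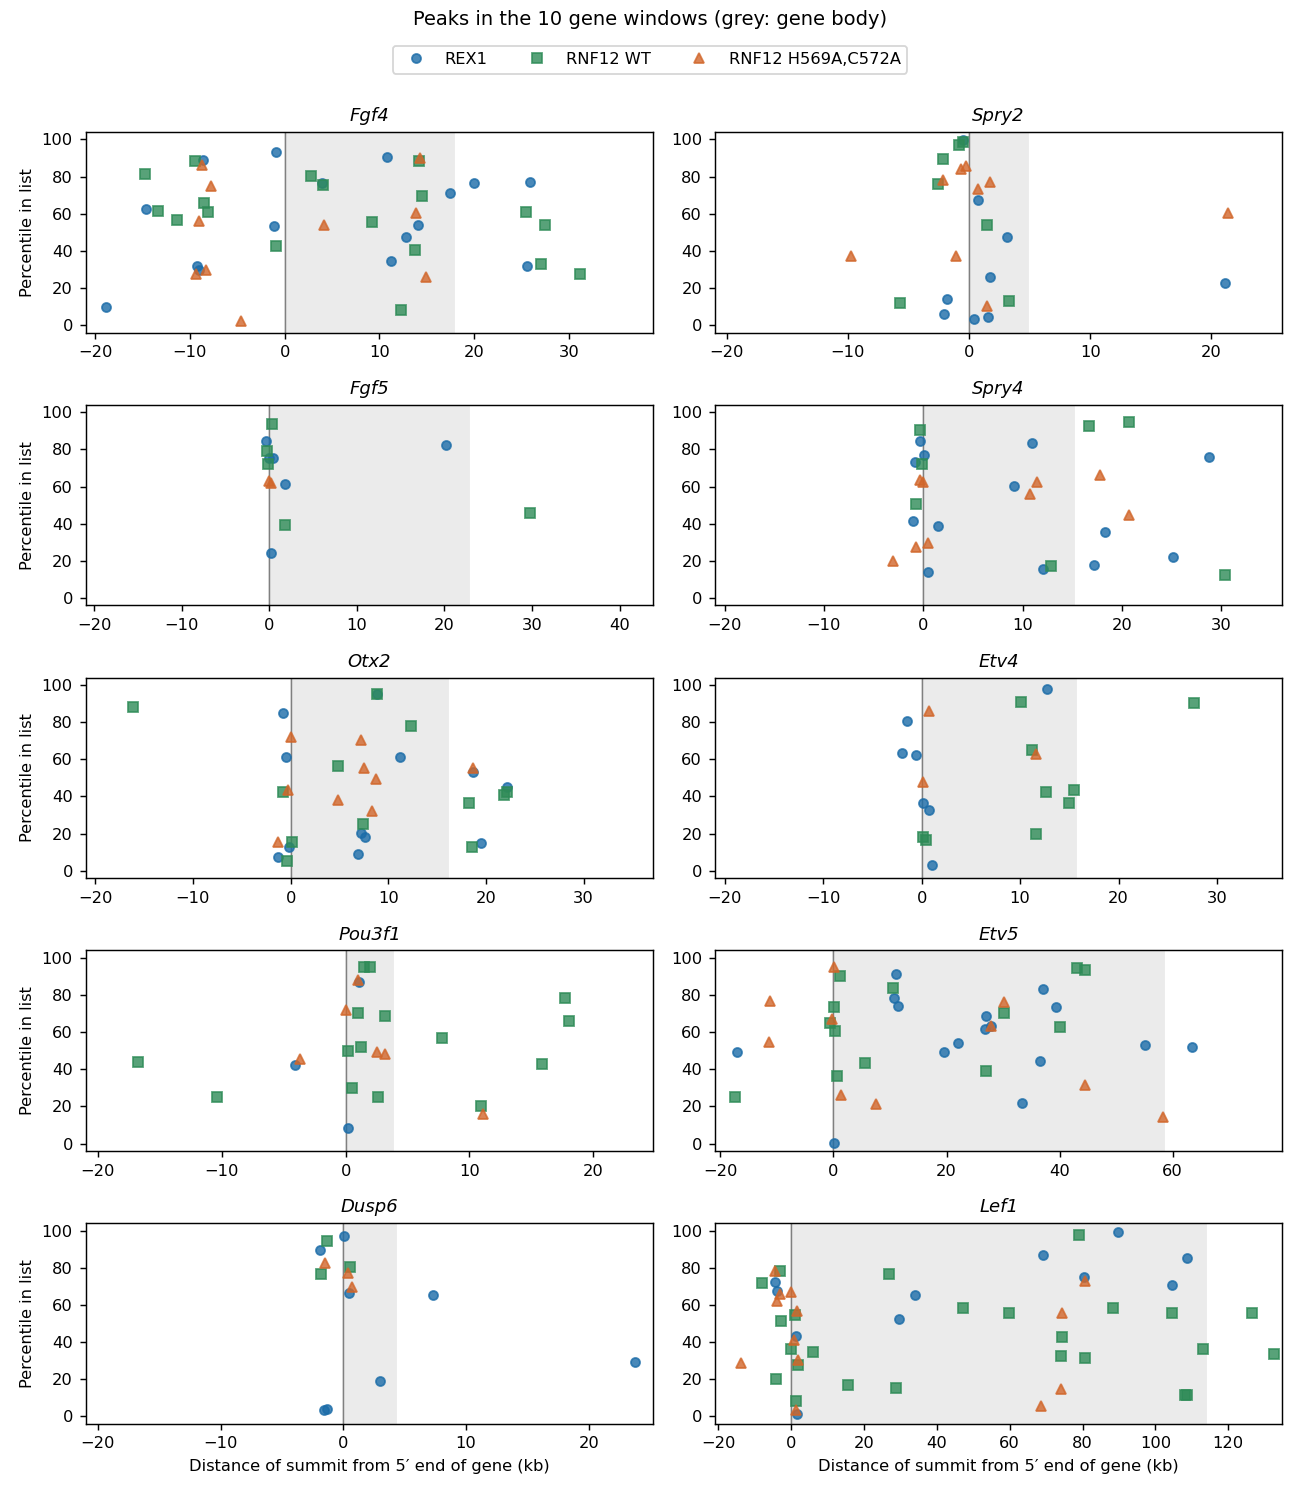
Each point is a peak, by the distance of its summit from the 5′ end of the gene in kb (horizontal axis, positive into the gene) and its percentile of fold enrichment within its own list (vertical axis), with the gene body in grey and 1 panel per gene. Points of REX1 and RNF12 WT coincide near the top at *Spry2* and *Otx2*, while at *Lef1* and *Etv4* the highest REX1 points lie inside the gene.

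Merging peaks that overlap by at least 1 bp gave 182 sites in the 10 windows, and 25 of them (13.7%, 9.48% to 19.5%) were in all 3 lists, against 13.0% of all sites of the series. The intervals treat sites as independent, although sites of 1 gene share a locus. Of the 42 promoter sites 16 were in all 3 lists (38.1%, 25% to 53.2%, against 33.5%), and of the 140 other sites 9 (6.43%, 3.42% to 11.8%, against 6.32%). The classes were unlike: member promoter sites lay within 1 kb of a TSS of the member gene, those of the series within 1 kb of any TSS. Sites near a TSS of another gene, such as the shared sites at the start of *Fgf3*, thus count among the 140. In sharing among all 3 lists the members were thus close to the series as a whole. RNF12 WT alone held 49 of the 140 sites off the promoters (35.0%, 27.6% to 43.2%), against 21.7% of all such sites. RNF12 H569A,C572A alone held 16 (11.4%, 7.16% to 17.8%), against 29.8%, and REX1 alone held 42 (30.0%, against 27.6%). The shares of all such sites take in sites far from any gene, which the member windows leave out. No share was computed for the windows of other genes, so these differences cannot be assigned to the members. *Lef1* contributed 14 of the 53 sites that RNF12 WT alone held at any position, *Fgf4* 8, and *Pou3f1* and *Etv5* 7 each.

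**Figure D5:**
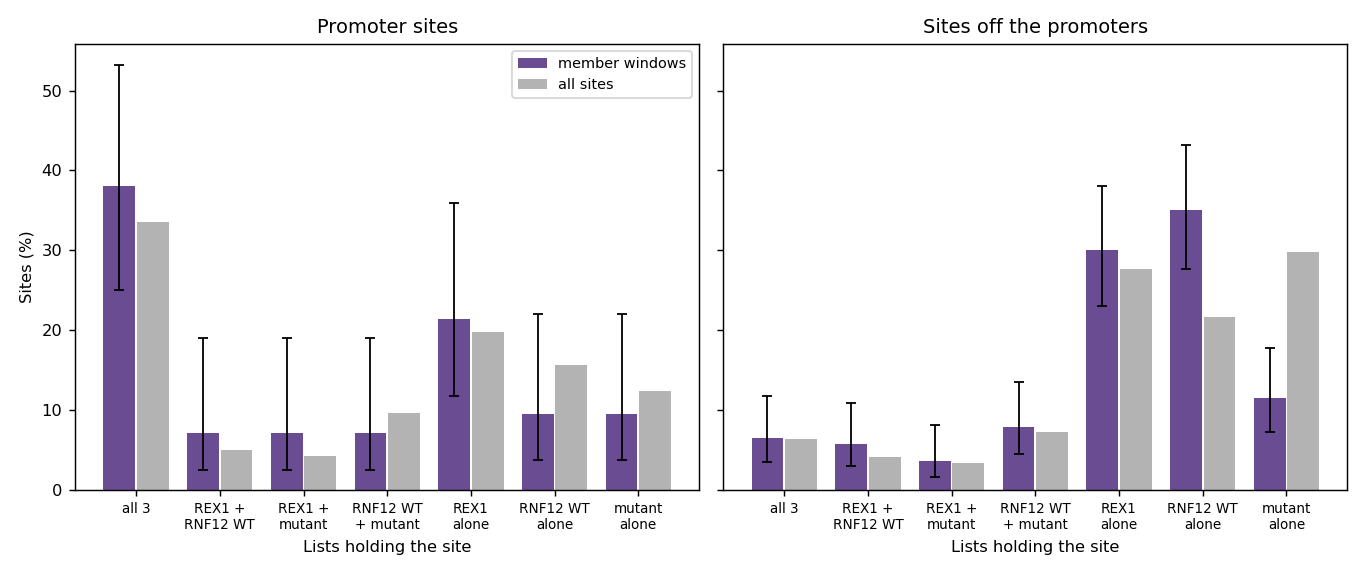
Percentage of sites (vertical axis) held by each combination of lists (horizontal axis), for promoter sites on the left and sites off the promoters on the right, in the 10 windows (purple, with 95% Wilson intervals) and over all sites (grey). Off the promoters, RNF12 WT alone held 35.0% of member sites and 21.7% of all sites, and RNF12 H569A,C572A alone 11.4% and 29.8%. Promoter means within 1 kb of a TSS of the member gene for member sites and of any gene for all sites. All sites include sites far from any gene.

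As shares of each list, 39 of the 101 REX1 member peaks overlapped an RNF12 WT peak (38.6%, 29.7% to 48.4%) and 38 an RNF12 H569A,C572A peak (37.6%, 28.8% to 47.4%). Over all REX1 peaks the shares were 39.4% and 40.5%. Of the RNF12 WT member peaks 36.0% overlapped REX1 (27.7% to 45.1%, against 41.2%) and 43.9% overlapped RNF12 H569A,C572A (35.1% to 53.0%, against 51.8%). Of the RNF12 H569A,C572A member peaks 54.1% overlapped REX1 (42.8% to 64.9%, against 34.5%) and 60.8% overlapped RNF12 WT (49.4% to 71.1%, against 42.8%). At the promoters alone, 23 of 29 RNF12 H569A,C572A peaks overlapped REX1 (79.3%, 61.6% to 90.2%, against 64.1%), while 72.4% overlapped RNF12 WT, against 72.3% of all. These member peaks lay within 1 kb of a TSS of their own gene, while the shares of all are for peaks within 1 kb of any TSS. Of the 9 RNF12 H569A,C572A member peaks near a TSS of another gene, 5 overlapped REX1. At distal positions 18 of 36 RNF12 H569A,C572A peaks overlapped RNF12 WT (50%, 34.5% to 65.5%, against 29.8%) and 18 of 72 RNF12 WT peaks overlapped RNF12 H569A,C572A (25%, 16.4% to 36.1%, against 38.4%). For RNF12 H569A,C572A peaks overlapping RNF12 WT, the promoter interval was 54.3% to 85.3% and overlapped the distal one, and 6 of 9 near a TSS of another gene overlapped. Whether the share differed between positions was not tested. The shares of all distal peaks take in peaks far from any gene. Of the RNF12 H569A,C572A member peaks 51.4% lay within 1 kb of any TSS, against 30.8% of all, and the part of this in the 60.8% was not tested. Of the REX1 promoter peaks 54.5% overlapped RNF12 WT (37.99% to 70.2%, against 63.1%). Where member peaks overlapped, the median distance between summits was 67.0 bp for REX1 and RNF12 WT, 72.5 bp for REX1 and RNF12 H569A,C572A and 67.5 bp for the RNF12 lists.

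The base composition of the members was close to that of their lists. GC content within 50 bp of the summit had a median of 61.4% at REX1 promoter peaks, 63.4% for RNF12 WT and 69.3% for mutant RNF12, and the medians over all peaks within 1 kb of a TSS were 63.4%, 65.3% and 68.3%. The RNF12 H569A,C572A peak at the start of *Etv5* was at 75.2% and the REX1 peak upstream of *Spry2* at 60.4%.

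Other genes of the pathway had promoter peaks almost without exception. Of 42 FGF and ERK pathway genes, such as receptors, adaptors, RAS, RAF, MEK and ERK genes and other feedback inhibitors, 42 had a promoter peak for REX1, 40 for RNF12 WT and 42 for mutant RNF12. Chosen after their values were seen, the 2 without RNF12 WT were *Elk1*, an ETS factor phosphorylated by ERK, and *Fos*, an immediate early gene. *Fos* lies on chromosome 12, where the RNF12 WT list held 2289 peaks against 5892 for REX1 and 4303 for mutant RNF12, and where 67.03% of genes had an RNF12 WT promoter peak against 81.5% and 81.2%. The part of this at *Fos* was not tested. Of 18 other primed-state genes the counts were 18, 17 and 18, the exception being *Sall2*, also named after its value was seen. All 8 Wnt pathway genes around LEF1 had one in each list. Of 15 naive pluripotency genes 13, 12 and 13 had one and 11 had one in all 3 lists, and *Dppa3* had none in any list. Named after their values were seen, *Nanog* had a promoter peak in the REX1 list alone, at percentile 80.1, *Zfp42*, the gene of REX1 itself, had none for RNF12 WT, and *Prdm14* had none for REX1. Among the highest REX1 percentiles in these lists were 99.8 at *Pou5f1*, the gene of OCT4, and 99.7 at the kinase gene *Araf*. At *Araf* RNF12 WT was at 99.6 and RNF12 H569A,C572A at 55.4, and at *Pou5f1* the values were 83.7 and 39.2. The Wilson intervals of the naive list, 62.1% to 96.3% for REX1 and mutant RNF12 and 54.8% to 92.95% for RNF12 WT, took in the 67.5% to 68.9% of all protein-coding genes with a promoter peak. Those of the FGF and ERK list started at 91.6% for REX1 and mutant RNF12 and at 84.2% for RNF12 WT, and no test was made. The strongest promoter peaks of the FGF and ERK genes had median percentiles of 77.5 for REX1, 81.5 for RNF12 WT and 85.2 for mutant RNF12. The medians over all protein-coding genes with a promoter peak were 77.5, 81.0 and 79.8, so the higher REX1 median of the members was not seen in this list.

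At the edge of the windows, the outermost peak inside was a REX1 peak 19514 bp from *Dusp6* with a fold enrichment of 3.89 (percentile 29.3). The nearest one outside was an RNF12 WT peak 20563 bp from *Dusp6* with 4.53 (percentile 45.8).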

How the data were processed

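The deposited data used here were 3 peak lists, 1 for each tagged protein (REX1, the active RNF12 and its H569A,C572A form), each from 1 library. The authors trimmed reads with Trim Galore 0.6.7, aligned them with Bowtie2 2.5.0 to mm10 with the positions at which 129/Sv and Cast/Ei differ masked, split them by allele with SNPsplit and merged the alleles, handled alignments with SAMtools 1.10 and called peaks with MACS2 2.2.7.1 in narrow mode. The deposited value per peak is a fold enrichment, a ratio over the control, beside −log10 of the p-value and q-value and a score from MACS2 that was not used. The 2 control libraries were not analysed here. Their titles call them input, but their labels give the V5 antibody and WT cells, so whether a fold enrichment is over input or over a V5 precipitation from untagged cells is not settled, nor which control stands behind each list. Fold enrichments were therefore ranked within a list only. Read totals, and so depth, are unknown.

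Genes and TSSs were those of GENCODE M21 and sequence that of GRCm38.p6, the mm10 build, for chromosomes 1 to 19 and X (21755 protein-coding genes). Peaks of different lists that overlapped by at least 1 bp formed a site. Shares have 95% Wilson intervals, which cover counting error only. No test was possible with 1 library per list. The members and gene lists were chosen with earlier results of these data known. Named were the 10 genes with the strongest promoter and distal peak per list and each site in all 3 lists and, of the gene lists, genes without a promoter peak in any list and the 3 with the highest REX1 percentile, of which 1 is not reported here. Genes without a promoter peak in 1 or 2 lists were named after their values were seen. *Spry3* had no matching entry and was left out. Alternatives changed the q threshold, TSS set, promoter distance, window, overlap, ranking and motif search, and the 5-letter core was added after seeing the data. Versions of the authors' tools are from the submitters' processing notes. Site merging, distances and intervals were tested on simulated data. The authors' MAnorm, ChIPseeker, MEME-ChIP and HOMER steps were left out. Computations used Python 3.11.15, numpy 2.4.6 and pandas 2.3.3.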

Additional observations from a re-analysis of the deposited data

How the results depend on the processing

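No paired analysis was possible because each list rests on 1 library. Of 72 alternatives to the counts, shares and medians, 39 stayed close to the reported value and 33 moved. Of 60 alternatives to the percentiles of single genes 59 moved, by −8.98 to 10.0 points when ranked by −log10 q and by −11.7 to 0.980 points when ranked among peaks within 1 kb of a TSS, with 1 and 3 of 30 values moving by more than 10 points. With only the 20000 peaks of highest −log10 q per list, the genes with a promoter peak were 6 for REX1 (without *Fgf5*, *Pou3f1*, *Etv5* and *Lef1*) and 3 for RNF12 H569A,C572A (*Fgf4*, *Etv4* and *Etv5*). Member peaks then numbered 20 (REX1), 23 (RNF12 WT) and 5 (mutant RNF12), the promoter share was 50% for REX1 and 60% for RNF12 H569A,C572A, and sites in all 3 lists were 2.56%. With a −log10 q of at least 5, REX1 had 62 member peaks of 52586, RNF12 WT 55 of 43473 and mutant RNF12 67 of 80750, so that the lists themselves shrank unequally. With a 50-kb window RNF12 H569A,C572A had 112, and the promoter shares were 22.3%, 20.9% and 25.9% for the 3 lists in the same order. With a 5-kb window the RNF12 WT share was 38.4%. Promoter shares were 52.5%, 48.2% and 55.4% within 3 kb of a TSS and 20.8%, 17.5% and 27.03% within 500 bp. Sites in all 3 lists fell to 6.45% when summits had to lie at most 100 bp apart and 4.68% when both peaks had to overlap by 50%. The median promoter percentile was 92.3, 88.9 and 68.2 by −log10 q, and 86.5, 84.1 and 65.5 among peaks within 1 kb of a TSS. In place of the REX1 string, the YY1 core was found at 0% of REX1 and 0% of RNF12 WT member peaks, and the 5-letter core at 31.7% and 12.3%. The share with the REX1 string was 3.96% for REX1 within 25 bp of the summit, and 8.91% for REX1, 3.51% for RNF12 WT and 2.70% for mutant RNF12 within 100 bp, all inside the intervals of the reported shares. Whether the thinner lists reflect depth was not tested, since read totals are unknown.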

Other observations

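Beyond the windows, between 20 and 50 kb from the genes, the REX1 list held 47 peaks, that of RNF12 WT 44 and that of mutant RNF12 38. A distal REX1 peak at chr14:105920611-105921191, 24278 bp from the TSS of *Spry2*, had a fold enrichment of 11.1 (percentile 97.7). A distal RNF12 H569A,C572A peak at chr5:98210573-98210910, upstream of *Fgf5*, had 23.1 (percentile 97.1), while the window of *Fgf5* itself held no distal peak of that list.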
